A study of Danio rerio with 5 samples.

Results

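The genes described here encode the ATPases that pump ions and lipids across membranes. They were taken by name: a gene was a member if its symbol in the deposited table began with atp1a, atp1b, atp2a, atp2b, atp2c, atp6v, atp6ap, atp7, atp8a, atp8b, atp9, atp10, atp11 or atp13a. This rule used no measured value and found 68 of the 22656 genes of the table. They fell into 15 sodium-potassium pump genes, 12 calcium pump genes, 23 V-type proton pump genes, 14 flippase genes, 2 copper pump genes and 2 genes of the P5 type. Of the 68, 40 had enough counts to be tested and 28 did not.

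The RNA was from embryos of the zebrafish strain Tübingen, kept at 28 °C and stripped of chorion and yolk. Post-MBT embryos (30% epiboly, 5.3 hours post-fertilisation; 2 libraries) were compared with MBT embryos (mid-blastula transition, sphere stage, 4 hours post-fertilisation; 3 libraries). The series is about the chromatin remodelling ATPases Brg1 and Brm, but no library here carries a mutation or treatment, so the comparison is of 2 stages of untreated embryos. RNA of embryos without chorion and yolk was sequenced, undivided by cell type. Fewer cells of a type and less RNA per cell therefore cannot be told apart. A change in the amount of all RNA per embryo does not appear in these values.

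As background, the P-type pumps pass through a phosphorylated state as they use ATP. The sodium-potassium pump is an alpha subunit, which carries the ions, held with a glycosylated beta subunit that brings it to the cell surface. Calcium pumps clear the cytosol: SERCA pumps fill the endoplasmic reticulum, SPCA pumps fill the Golgi apparatus, and PMCA pumps send calcium out of the cell. V-type pumps are rotary machines in which a cytosolic V1 sector splits ATP and a membrane V0 sector passes protons into lysosomes, endosomes and the Golgi apparatus. Flippases move phospholipids from the outer or luminal leaflet to the cytosolic leaflet. In the zebrafish blastula the cells form their first polarised epithelium, the enveloping layer, and maternal transcripts are replaced by zygotic ones.

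Total counts were 2488983 to 3701401 per library, and 43.0 to 51.5% of them were on the mitochondrial chromosome. The pump genes together held 0.294 to 0.302% of the nuclear counts in post-MBT libraries and 0.388 to 0.407% in MBT libraries. All 5 zygotic genes of a stage check list were higher in post-MBT embryos and all 5 maternal genes of it were lower. Of all tested genes 31.0% were called higher and 31.8% lower. The list was chosen with earlier results of these data known, so it is not an independent check of the labels. For her7 (1, 3 and 1 counts in MBT libraries) and cldng (18 and 8 counts in post-MBT libraries) the count filter favoured the direction of the change. Levels below are CPM (the share of a library's counts, scaled to a common depth with TMM factors). They are given per library in the order post-MBT A and B, then MBT A, B and C, or as mean ± SD with n = 2 post-MBT and n = 3 MBT libraries. On this scale all pump genes together summed to 1726 ± 30.4 CPM in post-MBT embryos and 1895 ± 53.5 CPM in MBT embryos. Fold changes are post-MBT over MBT on a log2 scale with their SE, and p-values are those of edgeR's quasi-likelihood fit, adjusted by Benjamini-Hochberg over 12007 genes. A gene with an adjusted p under 0.05 was called.

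More of the pump genes were lower than higher in post-MBT embryos, and the sodium-potassium class alone had more rises than falls. Of the 40 tested members, 8 rose and 22 fell, and 10 had no call. Over all 12007 tested genes 62.8% were called, 31.0% up and 31.8% down, so the 8 rises are 20% of the tested pump genes against 31.0%, and the 22 falls are 55.0% against 31.8%. The sodium-potassium pump genes had 4 rises and 1 fall among 5 tested. Falls outnumbered rises among the calcium pump genes (3 against 2, of 7 tested), the V-type genes (10 against 2, of 17 tested) and the flippases (6 against 0, of 8 tested), and 1 copper pump gene and 1 P5 gene fell.

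The median log2 fold change of the 40 genes was -0.62, beside -0.04 over all tested genes. It was 2.44 for the sodium-potassium class, -0.60 for calcium, -0.65 for V-type and -0.84 for flippases. A change of at least 2-fold was called up in 4 pump genes and down in 12, where 16.0% and 18.6% of all tested genes were called so. The libraries of the stages did not overlap for 30 of the 40 genes, close to the 73.9% of all tested genes. The members reached the filter in different ways: 31 passed it in both stages, 2 (atp1b2a and atp1b3a) through post-MBT libraries only and 7 through MBT libraries only. The 7 were atp6ap2, atp6v0a1b, atp6v0e1, atp6v1ab, atp6v1c1a, atp6v1h and atp9a. For genes that passed through a single stage the filter favoured the direction of the change. Both atp1b2a and atp1b3a are among the 4 sodium-potassium rises, and the median of that class, 2.44, is the value of atp1b3a. These counts and medians describe the genes that passed and not all 68.

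The scale of the comparison bears on the small changes. When libraries were scaled by their totals and not by TMM factors, the median of all tested genes moved by -0.41, and 3 pump genes rose and 27 fell, where 18.1% of all tested genes rose and 46.4% fell. The 3 rises on that scale were atp1b1a, atp1b2a and atp1b3a, all beta subunit genes of the sodium-potassium pump. Without post-MBT A, 5 pump genes rose and 21 fell, and over all genes 3165 rose and 3039 fell, against 3724 and 3813 with all libraries.

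**Figure D1:**
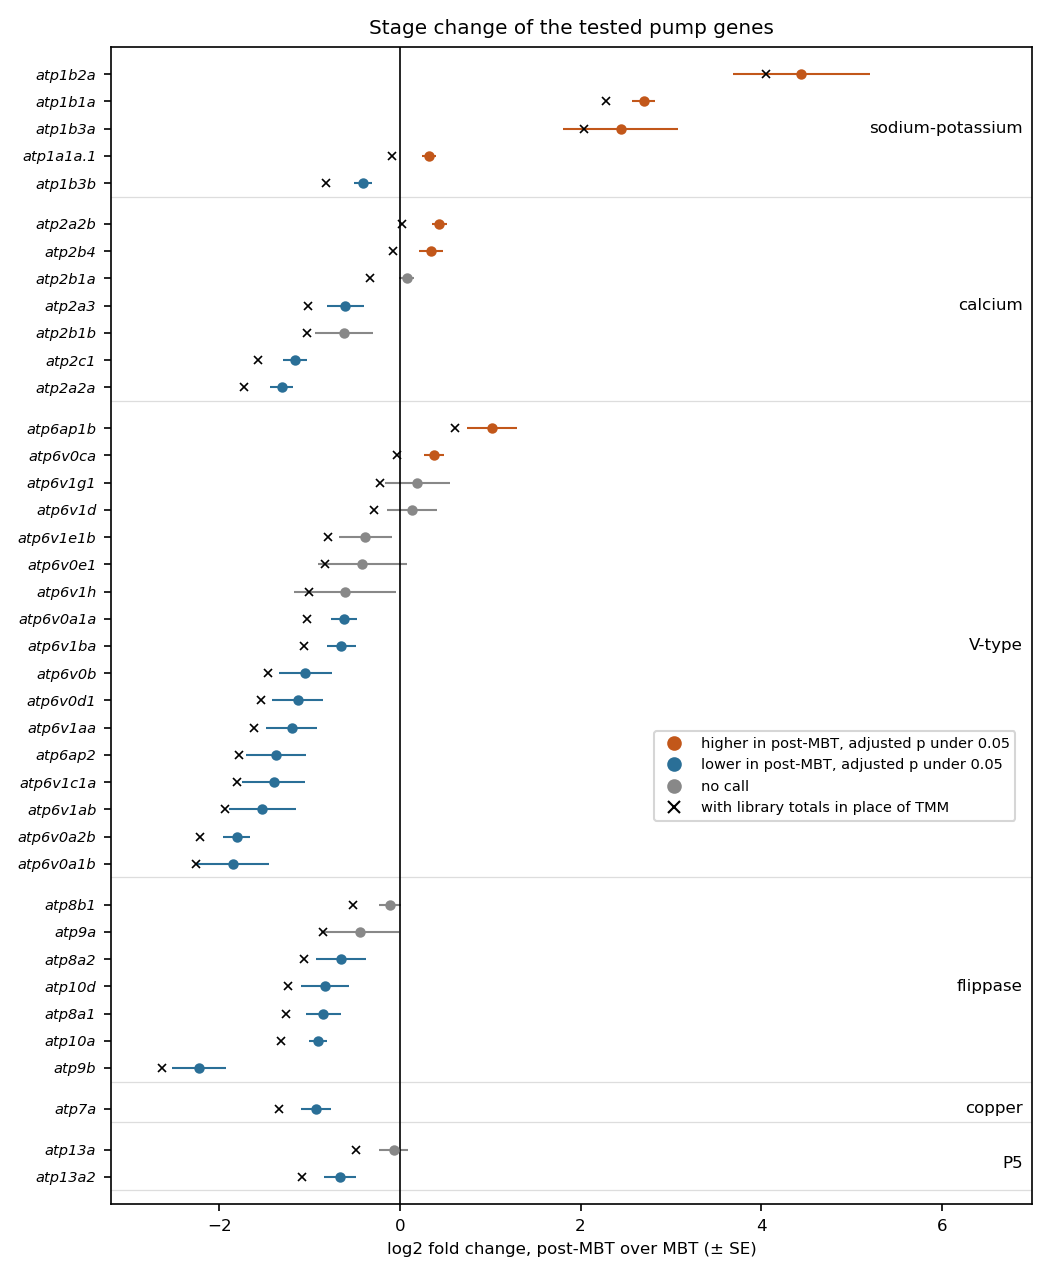
Log2 fold change (post-MBT over MBT, horizontal axis) of the tested pump genes, grouped by class. Points are fitted values with bars of ± SE, orange for genes that rose, blue for genes that fell and grey for genes with no call, and crosses are the same genes scaled by library totals; the flippases all lie left of 0, while 3 beta subunit genes lie right of 2 on both scales. The fitted value of atp1b2a rests on 2 counts in MBT libraries.

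Counts of the sodium-potassium pump came mostly from 1 alpha subunit gene and 2 beta subunit genes, and the balance between the beta subunit genes differed between the stages. The alpha gene atp1a1a.1 (chromosome 1, 1564375 to 1583770, plus strand, build D_rerio_Sep_2014) had 255 and 258 CPM in post-MBT libraries, against 213, 195 and 208 CPM in MBT libraries. Both post-MBT libraries lay above all MBT libraries. The log2 fold change was 0.32 ± 0.08 (adjusted p = 0.000304 by edgeR), and it turned to -0.086 with library totals (adjusted p = 0.486), so the direction of this small change depends on the scale. It held 98.0 and 98.3% of the alpha subunit counts in post-MBT libraries and 97.04, 97.5 and 98.5% in MBT libraries.

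The beta subunit gene atp1b1a (chromosome 6, 29226884 to 29236926, plus strand) had the smallest adjusted p of all pump genes. It was at 139 and 126 CPM in post-MBT libraries, against 19.5, 19.96 and 21.9 CPM in MBT libraries. The groups were far apart, with a log2 fold change of 2.70 ± 0.13 (6.49-fold; adjusted p = 3.19e-32 by edgeR), and 2.28 with library totals.

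The beta subunit gene atp1b3b (chromosome 15, 4362016 to 4424656, minus strand) was the more abundant beta gene at the MBT. It had 108 and 106 CPM in post-MBT libraries, against 122, 157 and 145 CPM in MBT libraries. Both post-MBT libraries lay below all MBT libraries, and the gene fell by 0.41 ± 0.10 on the log2 scale (adjusted p = 0.000216 by edgeR).

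Another pair of beta subunit genes was near the limit of detection at the MBT. The gene atp1b2a (chromosome 23, 45020817 to 45050137, plus strand) was at 5.79 and 4.46 CPM in post-MBT libraries, against 0, 0.459 and 0 CPM in MBT libraries. These are 30 counts in post-MBT libraries and 2 in MBT libraries, all from MBT B, a ratio of 25.9 per unit of depth with a 95% exact counting interval of 6.57 to 223 (adjusted p = 3.96e-07 by edgeR). The gene atp1b3a (chromosome 2, 16879116 to 16897098, minus strand) was at 3.86 and 4.09 CPM in post-MBT libraries, against 0.722, 0.918 and 0.348 CPM in MBT libraries. It rested on 30 counts in all, and its log2 fold change was 2.44 ± 0.63 (adjusted p = 0.000563 by edgeR). For both genes every post-MBT library was above every MBT library, but both passed the filter through post-MBT libraries only, which favoured a rise.

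The makeup of the beta subunit pool therefore differed between the stages. The share of atp1b1a in the counts of the 7 beta genes was 54.3% and 52.0% in post-MBT libraries (95% Wilson intervals 50.8 to 57.7% and 48.2 to 55.8%). In MBT libraries it was 13.7, 11.2 and 13.04% (10.7 to 17.5%, 9.14 to 13.6% and 10.33 to 16.3%). The intervals of the stages did not meet. The share of atp1b3b was 42.0 and 43.9% in post-MBT libraries and 85.8, 87.8 and 86.3% in MBT libraries.

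Per kilobase of exon, the levels of atp1b1a and atp1b3b were about equal in post-MBT embryos, with a ratio of 0.984 ± 0.0607 (SD, n = 2), against 0.116 ± 0.0134 in MBT embryos (SD, n = 3). All beta genes together stood at 1.67 ± 0.07 (SD, n = 2) per alpha gene level in post-MBT embryos and 1.502 ± 0.241 (SD, n = 3) in MBT embryos, which is within the spread of the MBT libraries. In order of level per kilobase, atp1a1a.1 was highest in post-MBT embryos at 73.7 ± 0.588 CPM per kilobase (SD, n = 2), ahead of atp1b3b at 60.8 ± 0.499 and atp1b1a at 59.9 ± 4.18, a pair that did not differ beyond their spread. In MBT embryos atp1b3b was highest at 80.4 ± 10.1 CPM per kilobase (SD, n = 3), followed by atp1a1a.1 at 59.0 ± 2.68 and atp1b1a at 9.24 ± 0.59.

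**Figure D2:**
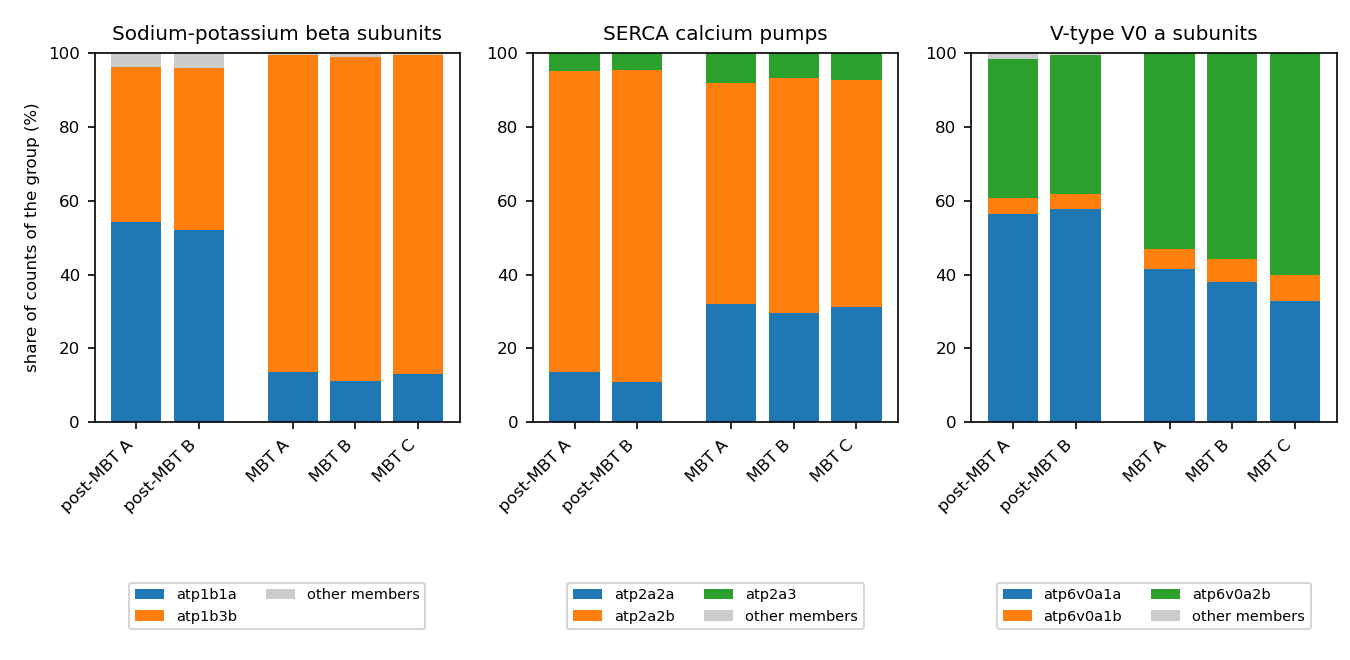
Share of counts (vertical axis, %) that each gene held within the beta subunits of the sodium-potassium pump, the SERCA calcium pumps and the a subunits of the V-type V0 sector, in the 2 post-MBT libraries (left bars) and the 3 MBT libraries (right bars). In post-MBT libraries atp1b1a held over 50% of the beta counts, against under 14% in MBT libraries, and atp2a2a held under 14% of the SERCA counts, against 29.7 to 31.9%.

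On the TMM scale the calcium pump genes moved in both directions, with the sum of the class at 670.2 ± 25.0 CPM in post-MBT embryos (SD, n = 2) and 701 ± 57.1 CPM in MBT embryos (SD, n = 3). With library totals 0 of the 7 tested rose and 5 fell, where 18.1% of all tested genes rose and 46.4% fell. Of all counts in a library, the class held 0.0548 and 0.0578% in post-MBT libraries, against 0.0851, 0.0782 and 0.0706% in MBT libraries, without overlap. The 2 copies of the SERCA2 pump gene, which fills the endoplasmic reticulum, went opposite ways on the TMM scale. The gene atp2a2a (chromosome 8, 11649532 to 11707288, plus strand) had 45.7 and 36.8 CPM in post-MBT libraries, against 119, 89.0 and 104 CPM in MBT libraries. It fell by 1.31 ± 0.13 on the log2 scale (adjusted p = 8.06e-15 by edgeR), and the libraries of the stages did not overlap.

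The copy atp2a2b (chromosome 21, 17014313 to 17071847, plus strand) had 273 and 282 CPM in post-MBT libraries, against 223, 191 and 203 CPM in MBT libraries. Both post-MBT libraries were above all MBT libraries. The log2 fold change was 0.44 ± 0.08 (adjusted p = 2.02e-06 by edgeR), but 0.027 with library totals, where it was not called (adjusted p = 0.836). On both scales atp2a2a fell, by 1.31 and by 1.72.

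The summed SERCA level was 335 ± 0.244 CPM in post-MBT embryos (SD, n = 2) and 334 ± 36.1 CPM in MBT embryos (SD, n = 3), which differ by less than the spread between MBT libraries. That closeness is of the TMM scale: of all counts in a library, the SERCA genes held 0.0281 and 0.0281% in post-MBT libraries, against 0.0414, 0.0359 and 0.0342% in MBT libraries, without overlap. Within that sum atp2a2b held 81.4 and 84.3% of the counts in post-MBT libraries, against 59.8, 63.5 and 61.3% in MBT libraries. Per kilobase there were 5.06 ± 0.893 of atp2a2b for each atp2a2a in post-MBT embryos (SD, n = 2) and 1.48 ± 0.101 in MBT embryos (SD, n = 3). The third SERCA gene, atp2a3 (chromosome 5, 30567447 to 30669038, plus strand), had 16.4 and 15.6 CPM in post-MBT libraries, against 30.7, 19.96 and 24.0 CPM in MBT libraries. It fell by 0.60 ± 0.21 on the log2 scale (adjusted p = 0.00863 by edgeR). That call was lost without post-MBT B (adjusted p = 0.0608), without MBT A (0.0695) and in DESeq2's Wald test (0.105).

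The Golgi calcium and manganese pump gene atp2c1 (chromosome 16, 41635082 to 41716931, minus strand) was the only SPCA gene of the table. It had 35.1 and 40.9 CPM in post-MBT libraries, against 83.7, 89.5 and 80.1 CPM in MBT libraries. The stages were well separated, and the gene fell by 1.16 ± 0.13 on the log2 scale (adjusted p = 8.26e-13 by edgeR), which is 2.24-fold.

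Of the 3 tested plasma membrane pump genes 1 was called, where 62.8% of all tested genes were. The most abundant, atp2b1a, had 216 and 243 CPM in post-MBT libraries, against 231, 212 and 211 CPM in MBT libraries, and the groups overlapped. Its log2 fold change was 0.08 ± 0.08 (adjusted p = 0.426 by edgeR), and -0.34 with library totals, where it was called (adjusted p = 0.00457). The gene atp2b4 (chromosome 11, 22739996 to 22827936, minus strand) had 56.0 and 59.1 CPM in post-MBT libraries, against 53.4, 41.3 and 42.5 CPM in MBT libraries, without overlap. Its log2 fold change of 0.34 ± 0.13 was called (adjusted p = 0.0204 by edgeR), lost that call without filter, in DESeq2 and without any of MBT B, MBT C, post-MBT A or post-MBT B, and was -0.072 with library totals. The gene atp2b1b had no call at -0.62 ± 0.32 (adjusted p = 0.0851 by edgeR), but was called without MBT B and with library totals. Per kilobase the order in the calcium class was atp2a2b, atp2b1a and atp2b4 in both stages, and atp2a2b and atp2b1a, at 32.6 ± 2.56 and 32.3 ± 1.70 CPM per kilobase, did not differ beyond their spread in MBT embryos (SD, n = 3).

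Of the 17 tested V-type genes 10 fell and 2 rose, or 58.8% and 11.8% beside 31.8% and 31.0% of all tested genes. The falls included genes of both the membrane and the cytosolic sector. Among these falls, atp6v0a1b, atp6v1ab, atp6v1c1a and atp6ap2 passed the filter through MBT libraries only, so the filter favoured that direction. Of the 7 tested V0 genes 5 fell and 1 rose, of the 8 tested V1 genes 4 fell and 4 had no call, and of 2 accessory genes 1 fell and 1 rose. The sum of the class was 270.0 ± 2.40 CPM in post-MBT embryos (SD, n = 2) and 380.4 ± 16.6 CPM in MBT embryos (SD, n = 3).

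The a subunits of V0 form the proton path together with the ring and set the membrane to which the pump goes. The gene atp6v0a2b (chromosome 5, 24040246 to 24063744, plus strand) had 23.5 and 20.8 CPM in post-MBT libraries, against 70.4, 76.2 and 87.4 CPM in MBT libraries. Post-MBT libraries were far below all MBT libraries, and the gene fell by 1.81 ± 0.15 on the log2 scale (adjusted p = 1.55e-18 by edgeR).

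A second a subunit gene, atp6v0a1b (chromosome 24, 7564786 to 7602822, minus strand), had 2.58 and 2.23 CPM in post-MBT libraries, against 7.22, 8.72 and 10.4 CPM in MBT libraries, and fell by 1.85 ± 0.40 (adjusted p = 3.99e-05 by edgeR). The third, atp6v0a1a (chromosome 3, 16772403 to 16823329, plus strand), had 35.1 and 32.0 CPM in post-MBT libraries, against 54.8, 52.1 and 47.7 CPM in MBT libraries, and fell by 0.62 ± 0.14 (adjusted p = 0.000133 by edgeR). For both genes the stages did not overlap. Because the falls were unequal, atp6v0a1a held 56.5 and 57.7% of the a subunit counts in post-MBT libraries, against 41.4, 38.0 and 32.8% in MBT libraries, and atp6v0a2b held 37.8 and 37.6%, against 53.1, 55.5 and 60.0%.

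The proteolipid gene atp6v0ca (chromosome 3, 15894878 to 15905663, minus strand), whose product forms the rotating ring of V0, went the other way. It had 113 and 93.7 CPM in post-MBT libraries, against 73.2, 88.8 and 74.9 CPM in MBT libraries. Post-MBT B was close to MBT B, but both post-MBT libraries lay above all MBT libraries. The log2 fold change of 0.38 ± 0.11 (adjusted p = 0.00182 by edgeR) was 0.23 without post-MBT A (adjusted p = 0.182) and -0.035 with library totals, so its direction depends on the scale. It was by far the highest V-type gene per kilobase, at 63.4 ± 8.39 CPM per kilobase in post-MBT embryos (SD, n = 2) and 48.4 ± 5.24 in MBT embryos (SD, n = 3). Next were atp6v1ba at 10.8 ± 0.303 in post-MBT embryos and atp6v0a2b at 22.1 ± 2.46 in MBT embryos. The share of atp6v0ca in all V0 counts was 58.7 and 56.2% in post-MBT libraries, against 31.8, 33.1 and 29.6% in MBT libraries.

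The other V0 genes encode the second ring proteolipid, the d subunit that joins ring and stalk, and the small e subunit. The ring gene atp6v0b fell by 1.05 ± 0.29 (adjusted p = 0.00149 by edgeR), a call lost in DESeq2 (adjusted p = 0.0543). The d subunit gene atp6v0d1 fell by 1.13 ± 0.28 (adjusted p = 0.000444 by edgeR) although the groups overlapped, at 7.40 and 9.29 CPM in post-MBT libraries, against 9.02, 24.1 and 19.5 CPM in MBT libraries. MBT A was as low as the post-MBT libraries. The e subunit gene atp6v0e1, on 50 counts in all, had no call at -0.41 ± 0.50.

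In V1 the A and B subunits form the ring that splits ATP. The 2 copies of the A subunit gene both fell. The gene atp6v1aa (chromosome 5, 23741882 to 23756192, plus strand) had 6.12 and 6.32 CPM in post-MBT libraries, against 16.2, 14.0 and 12.9 CPM in MBT libraries, a log2 fold change of -1.20 ± 0.28 (adjusted p = 0.000143 by edgeR). The gene atp6v1ab (chromosome 24, 21009695 to 21027669, minus strand) had 2.25 and 4.09 CPM in post-MBT libraries, against 9.02, 8.49 and 9.75 CPM in MBT libraries, a fall by 1.52 ± 0.37 (adjusted p = 0.000264 by edgeR). Neither gene overlapped between the stages.

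The B subunit gene atp6v1ba (chromosome 17, 21352458 to 21398417, minus strand) was the most abundant V1 gene, with 26.1 and 27.1 CPM in post-MBT libraries, against 38.2, 37.6 and 50.2 CPM in MBT libraries. It fell by 0.65 ± 0.16 (adjusted p = 0.000352 by edgeR). The gene atp6v1c1a (chromosome 16, 52862552 to 52881848, plus strand), for the C subunit that links V1 to V0 when the pump assembles, had 4.19 and 3.34 CPM in post-MBT libraries, against 12.3, 7.34 and 11.5 CPM in MBT libraries. It fell by 1.40 ± 0.35 (adjusted p = 0.000381 by edgeR), and all post-MBT libraries of both genes were below all MBT libraries. The stalk and regulatory genes atp6v1d, atp6v1e1b, atp6v1g1 and atp6v1h had no call, with log2 fold changes of 0.13 ± 0.28, -0.38 ± 0.30, 0.19 ± 0.36 and -0.61 ± 0.57. These genes had 40 to 152 counts in all 5 libraries together. With library totals atp6v1e1b was called lower (-0.79, adjusted p = 0.0178 by edgeR).

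Of the accessory genes, atp6ap2 (chromosome 22, 11093802 to 11107066, minus strand), whose product is also known as the prorenin receptor, had 3.22 and 6.32 CPM in post-MBT libraries, against 11.5, 9.18 and 16.7 CPM in MBT libraries. It fell by 1.37 ± 0.33 (adjusted p = 0.000192 by edgeR) without overlap. The gene atp6ap1b had 9.66 and 20.1 CPM in post-MBT libraries, against 8.299, 7.34 and 5.92 CPM in MBT libraries. Post-MBT B was well above post-MBT A, which lay just above MBT A. The log2 fold change was 1.02 ± 0.28 (adjusted p = 0.00103 by edgeR), 0.43 without post-MBT B (adjusted p = 0.346) and 0.60 with library totals (adjusted p = 0.0574), so the call rests on that library and on the scale.

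**Figure D3:**
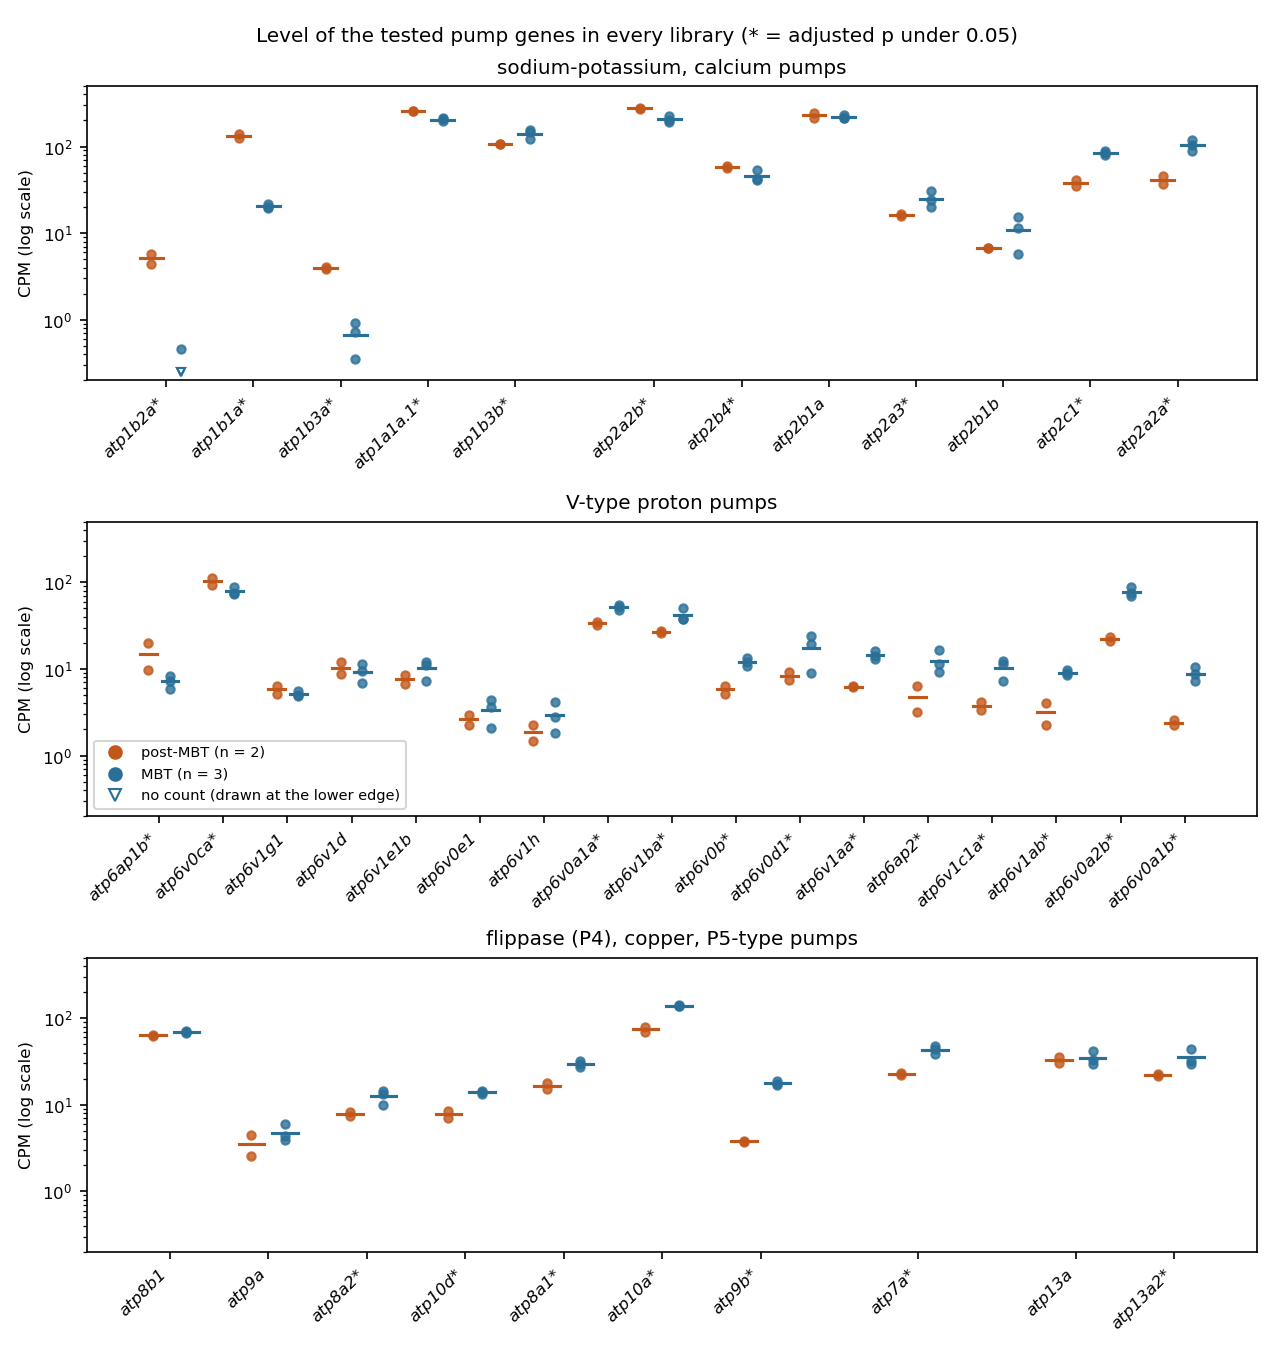
Level of the tested pump genes in every library, in CPM on a log axis, with post-MBT libraries (orange, n = 2) left of MBT libraries (blue, n = 3) and a bar at each group's mean. An asterisk marks an adjusted p under 0.05 and an open triangle at the lower edge marks libraries with no count; the points of atp9b, atp6v0a2b and atp1b1a show wide gaps between the stages, and those of atp2b1a and atp8b1 lie side by side.

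No tested flippase gene rose, where 31.0% of all tested genes did. Of the 8 tested, 6 fell (75.0%, beside 31.8% of all tested genes) and 2 had no call. Of these 2, atp9a passed the filter through MBT libraries only. The count of rises was 0 by edgeR, by DESeq2's Wald test and at an unadjusted p under 0.05. The summed level was 197 ± 9.96 CPM in post-MBT embryos (SD, n = 2) and 328 ± 4.32 CPM in MBT embryos (SD, n = 3).

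The most abundant flippase gene by counts was atp10a (chromosome 6, 38629132 to 38729612, plus strand), whose human product flips phosphatidylcholine at the plasma membrane. It had 69.2 and 79.9 CPM in post-MBT libraries, against 138, 141 and 140 CPM in MBT libraries. The MBT libraries were nearly equal and well above both post-MBT libraries, and the gene fell by 0.91 ± 0.10 (1.88-fold; adjusted p = 2.40e-12 by edgeR).

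The largest fall of any called pump gene was that of atp9b (chromosome 19, 22490154 to 22596298, plus strand), a Golgi member of the family. It had 3.86 and 3.72 CPM in post-MBT libraries, against 17.3, 19.0 and 17.1 CPM in MBT libraries. That is a fall by 2.23 ± 0.30 on the log2 scale (4.69-fold; adjusted p = 6.49e-10 by edgeR). Its relative atp9a had no call at -0.44 ± 0.43.

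The gene atp8a1 (chromosome 14, 44399121 to 46200273, plus strand), a phosphatidylserine flippase of endosomes and the Golgi apparatus in mammals, had 15.1 and 17.8 CPM in post-MBT libraries, against 27.1, 29.6 and 32.0 CPM in MBT libraries, and fell by 0.85 ± 0.19 (adjusted p = 8.48e-05 by edgeR). The annotated span of atp8a1 encloses or overlaps those of 11 other genes, 5 of them on the same strand. The counts carry no strand, so a part of its reads could belong to them.

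The gene atp10d (chromosome 13, 12257623 to 12319474, plus strand) had 7.08 and 8.55 CPM in post-MBT libraries, against 14.1, 13.3 and 14.3 CPM in MBT libraries, and fell by 0.83 ± 0.27 (adjusted p = 0.00535 by edgeR). The call was lost in DESeq2 (adjusted p = 0.0946) and without post-MBT A (0.0947). The gene atp8a2 fell by 0.65 ± 0.28 (adjusted p = 0.0358 by edgeR), a call lost in 7 of 12 alternative analyses, among them those without MBT A, MBT C, post-MBT A or post-MBT B.

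The gene atp8b1, whose human form is mutated in inherited cholestasis, had no call. It had 62.8 and 64.3 CPM in post-MBT libraries, against 70.4, 68.6 and 66.9 CPM in MBT libraries, a log2 fold change of -0.11 ± 0.12 (adjusted p = 0.416 by edgeR), and was called lower with library totals (-0.52). Per kilobase atp8b1 was the highest flippase in post-MBT embryos at 14.5 ± 0.244 CPM per kilobase (SD, n = 2), ahead of atp10a at 11.7 ± 1.19. In MBT embryos atp10a was highest at 21.9 ± 0.225 CPM per kilobase (SD, n = 3), ahead of atp8b1 at 15.6 ± 0.396.

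The copper pump gene atp7a (chromosome 14, 22100071 to 22142934, plus strand), which loads copper enzymes in the Golgi apparatus and exports copper, had 22.2 and 23.0 CPM in post-MBT libraries, against 47.3, 39.0 and 43.9 CPM in MBT libraries. It fell by 0.93 ± 0.16 (adjusted p = 9.46e-07 by edgeR), with a wide gap between the stages. Of the P5 genes, atp13a2 (chromosome 23, 24584876 to 24616392, minus strand), whose human product exports polyamines from lysosomes, had 21.2 and 22.7 CPM in post-MBT libraries, against 44.4, 31.9 and 29.3 CPM in MBT libraries. It fell by 0.67 ± 0.18 (adjusted p = 0.000829 by edgeR) without overlap. The gene listed as atp13a had no call at -0.07 ± 0.16 (30.3 and 35.7 CPM in post-MBT libraries, against 41.5, 33.0 and 29.3 CPM in MBT libraries), and the groups overlapped. With library totals atp13a was called lower (-0.48, adjusted p = 0.017 by edgeR).

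The 28 members under the filter had 1 to 36 counts each over all 5 libraries. They include 7 alpha subunit genes of the sodium-potassium pump (atp1a1a.2, atp1a1a.3, atp1a1a.4, atp1a1b, atp1a2a, atp1a3a and atp1a3b) and the beta genes atp1b1b, atp1b2b and atp1b4. Also under it were the calcium pump genes atp2a1, atp2a1l, atp2b2, atp2b3a and atp2b3b, the flippase genes atp10b, atp11a, atp8b2, atp8b4, atp8b5a and atp8b5b, and the copper pump gene atp7b. The V-type genes under it were atp6ap1a, atp6v0a2a, atp6v0cb, atp6v1b2, atp6v1c1b and atp6v1f. When no filter was set, 1 of the 28 was called: atp10b was at 0.644 and 0 CPM in post-MBT libraries, against 2.53, 0.918 and 4.18 CPM in MBT libraries (adjusted p = 0.0121 by edgeR). A count of 0 allows up to 3 counts, or 0.688 to 1.11 CPM, in a library. A further gene of this name pattern, atp1a1a.5, stands in the authors' deposited list of genes with under 1 count.

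Some members lie next to each other. The alpha genes atp1a1a.4, atp1a1a.1, atp1a1a.2 and atp1a1a.3 stand on chromosome 1 within 1542000 to 1667866, with gaps of 6009, 57792 and 8459 bases between neighbours. Of these 4 genes only atp1a1a.1 passed the filter. The sources used here do not give how reads matching several copies were treated, so the split among these neighbours is uncertain. On chromosome 14, atp10b ends 34951 bases before atp7a. The called members that rose had a median exonic length of 2211 bases and a median span of 18.7 kb, those that fell 3823 bases and 48.4 kb, and those with no call 2001 bases and 49.1 kb. When an offset for exonic length was added to the fit, 8 members rose and 21 fell, where 30.5% of all tested genes rose and 31.9% fell.

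The authors' deposited tables of genes past a threshold hold 25 pump genes in the table at a score of 10 and an absolute log2 ratio of 0.585, where the authors' ratio runs the other way, as 4 hpf over 5.3 hpf. In that table atp1b1a, atp1b2a, atp1b3a and atp6ap1b were higher at 5.3 hpf and 21 were higher at 4 hpf, while all 5601 genes of it were 2834 higher at 5.3 hpf and 2767 higher at 4 hpf. At a score of 20 and a ratio of 1, the authors' deposited table kept 8 pump genes, 2 of them higher at 5.3 hpf. Of all 2923 genes in it 1510 were higher at 5.3 hpf. At a score of 30 and a ratio of 1.585 the table kept 4 pump genes, and atp1b1a and atp1b2a were those higher at 5.3 hpf. Of all 1318 genes there 787 were higher at 5.3 hpf. The comparison of exons within genes in the authors' deposited table gave a value for 4 members, among them atp2a3, atp13a and atp6v1ba, each with a score of 0.

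Genes that work with the pumps were taken from 6 lists of 170 symbols, of which 119 are in the table and 74 were tested. Of these 11 rose, 27 fell and 36 had no call, or 14.9% up and 36.5% down beside 31.0% and 31.8% of all tested genes. With library totals 7 rose and 47 fell, where 18.1% of all tested genes rose and 46.4% fell.

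Of 6 tested regulators and exchangers edgeR called 0 up and 0 down, beside 31.0% and 31.8% of all tested genes. DESeq2's Wald test called 0 of the 6 too. At an unadjusted p under 0.05 there was 1 in each direction, slc8a1b at 0.29 ± 0.14 and slc9a8 at -0.80 ± 0.37, and with library totals 3 were called lower. The gene slc8a1b was called higher with DESeq2 size factors, upper-quartile factors and the exonic length offset (adjusted p = 0.0396, 0.0352 and 0.0158 by edgeR), and slc9a8 was called lower without MBT B (adjusted p = 0.0474). For slc9a8 (14 and 9 counts in post-MBT libraries), which passed through MBT libraries only, the filter favoured a fall. The pump regulator gene fxyd6l was at 11.2 ± 2.60 CPM in post-MBT embryos (SD, n = 2) and 12.5 ± 1.12 CPM in MBT embryos (SD, n = 3).

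Among the 16 tested genes of calcium release and entry, 7 fell and 2 rose. These are 43.75% and 12.5%, beside 31.8% and 31.0% of all tested genes. The calcium-storing chaperone of the endoplasmic reticulum calr had 53.9 ± 6.25 CPM in post-MBT embryos (SD, n = 2) and 136 ± 8.43 CPM in MBT embryos (SD, n = 3), and fell by 1.33 ± 0.11 (adjusted p = 5.62e-18 by edgeR). The inositol trisphosphate receptor gene itpr2, a release channel of the same store, fell by 1.79 ± 0.16 (adjusted p = 1.22e-16 by edgeR). The others that fell were itpr1a, the chaperone canx, the store sensor stim1a, the mitochondrial uniporter mcu and tmco1. Of these, itpr1a was not called in 7 of 12 alternatives and tmco1 missed the threshold in DESeq2's Wald test (adjusted p = 0.0506). For itpr1a (13 and 8 counts in post-MBT libraries), which passed through MBT libraries only, the filter favoured a fall. The calmodulin genes calm3b and calm2b rose by 0.94 ± 0.13 and 1.32 ± 0.23 (adjusted p = 1.95e-09 and 6.16e-07 by edgeR).

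Of 23 tested genes of V-type assembly and the lysosome, 5 rose and 7 fell, or 21.7% and 30.4% beside 31.0% and 31.8% of all tested genes. All 5 that rose were cathepsin genes, for peptidases of the lysosome: ctsla (0.78 ± 0.07, adjusted p = 1.90e-16 by edgeR), ctsa, ctsc, ctsh and ctsd, of which ctsd was at -0.0075 with library totals and was not called without post-MBT B (adjusted p = 0.108). The most abundant, ctsla, had 557 ± 25.3 CPM in post-MBT embryos (SD, n = 2) and 325 ± 4.68 CPM in MBT embryos (SD, n = 3). With 1, 3 and 3 counts in MBT libraries, ctsh passed the filter through post-MBT libraries only, which favoured its rise. The V-type assembly factor gene rogdi and the Rag GTPase gene rragca, which signals from the lysosome to mTOR, both fell by 2.11 (SE 0.24 and 0.25; adjusted p = 1.47e-12 and 7.94e-12 by edgeR). The other falls were the cholesterol exporter npc1, the chloride transporters clcn7 and clcn5, the cathepsin ctsba and the transcription factor tfe3a, of which ctsba was not called in 6 and tfe3a in 10 of 12 alternatives.

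Flippases of most kinds need a CDC50 subunit to leave the endoplasmic reticulum. Of the 2 copies of its gene, tmem30ab had 15.8 ± 2.33 CPM in post-MBT embryos (SD, n = 2) and 44.4 ± 1.33 CPM in MBT embryos (SD, n = 3), and its log2 fold change was -1.50 ± 0.18 (adjusted p = 7.96e-12 by edgeR). The other copy, tmem30aa, had no call at 34.3 ± 2.01 and 40.7 ± 5.18 CPM in post-MBT and MBT embryos (adjusted p = 0.172 by edgeR). It was called lower with library totals (-0.647, adjusted p = 0.000744 by edgeR) and without MBT B (-0.365, adjusted p = 0.0364 by edgeR). Over the list of 11 tested flippase subunits and scramblases, 5 fell and 2 rose. These are 45.5% and 18.2%, beside 31.8% and 31.0% of all tested genes. The scramblase-related gene xkr8.3 fell by 3.43 ± 0.42 and the anoctamin gene ano5b by 2.10 ± 0.19, while its copy ano5a rose by 3.27 ± 0.60 (adjusted p = 3.85e-11, 6.84e-17 and 1.80e-06 by edgeR). With 2 and 5 counts in post-MBT libraries, xkr8.3 passed the filter through MBT libraries only. With 4, 0 and 2 counts in MBT libraries, ano5a passed it through post-MBT libraries only. For both genes the filter favoured the direction of the change. The gene plscr3b rose by 0.38 ± 0.14 but was at -0.037 with library totals and was not called in 5 of 12 alternatives, and dopey1 and dopey2 fell. For dopey2 too (8 and 10 counts in post-MBT libraries), which passed through MBT libraries only, the filter favoured the fall.

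Of 5 tested copper genes 3 fell and 1 rose, where 31.8% of all tested genes fell and 31.0% rose. The falls were slc31a2, mtf1 and mt2, with log2 fold changes of -2.10 ± 0.41, -1.29 ± 0.35 and -1.10 ± 0.44. With 7 counts each in post-MBT A, these genes passed the filter through MBT libraries only, which favoured a fall. Without post-MBT A neither mtf1 (-0.72, adjusted p = 0.143 by edgeR) nor mt2 (-0.83, adjusted p = 0.196) was called, and mt2 was not called without MBT B (-0.63, adjusted p = 0.241) or in DESeq2's Wald test (0.232). The copper importer gene slc31a1 rose by 0.27 ± 0.11 (adjusted p = 0.032 by edgeR), was at -0.13 with library totals and was not called in 7 of 12 alternatives. Of 13 tested genes of the mitochondrial F-type ATP synthase 5 fell (38.5%, beside 31.8% of all tested genes) and 1 rose (7.69%, beside 31.0%). This synthase makes ATP and is a rotary relative of the V-type pump. The gene atp5c1 of its central stalk had a log2 fold change of -1.06 ± 0.12 (adjusted p = 9.09e-12 by edgeR), followed by atp5g3b and atp5b by adjusted p, and atp5g3a rose by 0.51 ± 0.21, a call lost in 8 of 12 alternatives, library totals among them. Among the 5 falls, atp5s (4 and 1 counts in post-MBT libraries) passed the filter through MBT libraries only, which favoured its fall. Its call was lost in 3 of the 10 alternatives that gave it a value.

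**Figure D4:**
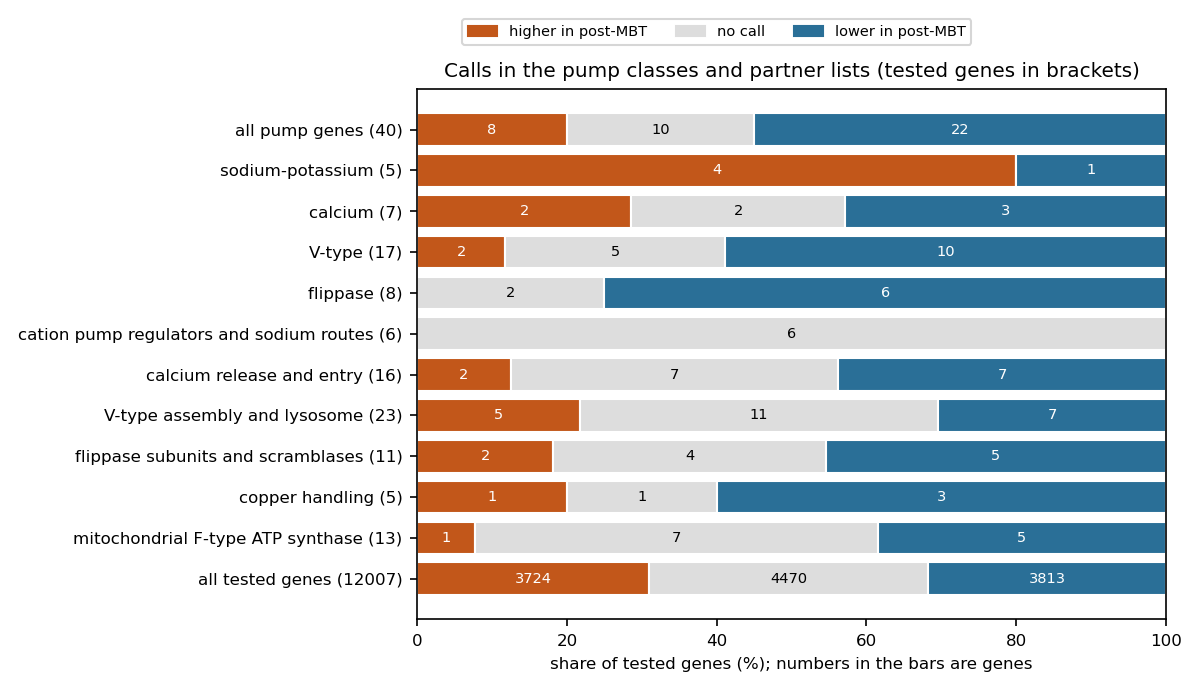
Number of genes that rose, fell or had no call in each class of pump genes and in each list of partner genes, as a share of the tested genes of that list (horizontal axis, %), with all 12007 tested genes for comparison. The sodium-potassium class is mostly rises (4 of 5), and the flippase class holds 6 falls and no rise. Among these 4 rises, atp1b2a and atp1b3a passed the filter through post-MBT libraries only, which favoured a rise, and atp1a1a.1 was at -0.086 with library totals.

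Markers of the enveloping layer and of the yolk syncytial layer differed between the stages too. The summed level of the 12 enveloping layer genes was 1237 to 1257 CPM in post-MBT libraries and 285 to 320.3 CPM in MBT libraries. Of 10 tested 9 rose, among them the keratin genes krt4, krt5, krt8 and krt18, where 31.0% of all tested genes rose. The gene grhl3 rose by only 0.30 ± 0.10, and klf2b had no call at 0.17 ± 0.13 (adjusted p = 0.240 by edgeR). The 7 yolk syncytial layer genes in the table summed to 86.0 to 94.4 CPM in post-MBT and 16.7 to 18.8 CPM in MBT libraries. Of 5 tested 4 were higher, beside 31.0% of all tested genes, and mxtx2 was lower. The 4 (hnf4a, hnf1ba, slc26a1 and gata6) had 0 to 11 counts in each MBT library and passed the filter through post-MBT libraries only. The filter therefore favoured a rise in them, as in cyt1 of the enveloping layer, which had 0 counts in each MBT library. Ionocytes, the sodium-pumping cells of the later skin, had 5 marker genes in the table, which summed to 1.93 to 2.23 CPM in post-MBT libraries and 2.09 to 4.36 CPM in MBT libraries. Of these, foxi3b and ca15a had 1 count each in all libraries, and the 1 tested gene, slc4a4b, had no call. With library totals slc4a4b was called lower (-1.63). It had 3 and 4 counts in post-MBT libraries and passed the filter through MBT libraries only, which favoured a fall. The embryos had been freed of yolk before extraction. The part of the enveloping layer and the yolk syncytial layer in the rise of atp1b1a was not tested.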

How the data were processed

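RNA libraries of embryos of 2 stages, freed of chorion and yolk (2 post-MBT, 3 MBT), were made from 5 ng of total RNA each. They were primed at random and amplified over 10 PCR cycles, per the labels' protocols. Novoalign 2.8 and DESeq2 are named in the submitters' processing notes. The deposited counts per gene are whole numbers, in which a pair of reads overlapping a gene was counted once, per the file headers. Coordinates are on the build D_rerio_Sep_2014 and are given from 1. The authors' log2 ratios, of 4 hpf over 5.3 hpf, come from DESeq2, and the authors' score is 10 times the negative log10 of an adjusted p-value, per the file headers. Exonic lengths are the authors' too. Another 10 columns of per-library values were left out. Each count column gives its stage but not its sample, so the libraries are called post-MBT A and B and MBT A, B and C. No label says that these are separate clutches, so p-values measure only the spread between libraries, which may be technical. Within a stage, each pair of libraries differed beyond sampling noise (chi-square of 1.26 to 1.91 for each degree of freedom, over nuclear genes).

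Counts were tested with edgeR 4.0.16 in R 4.3.3 (filterByExpr at a minimum count of 10, TMM normalisation, quasi-likelihood test with robust dispersions, Benjamini-Hochberg adjustment, calls at 0.05), after a check on simulated counts. CPM are counts over the product of library size and TMM factor. Alternatives were DESeq2 size factors, upper-quartile factors, library totals, no filter, the Wald test of DESeq2 1.42.0, mitochondrial genes left out, an exonic length offset, and each library left out in turn. Sums, shares and ratios are descriptions without a test: with 10 ways to split 5 libraries, an exact permutation test cannot go below p = 0.1. Shares have 95% Wilson intervals, and intervals and floors cover counting error only. Values per library are given for the up to 5 called members of a class with the smallest adjusted p (8 for V-type), for all called sodium-potassium genes and for the highest member per length. Of each partner list, the up to 3 called genes with the smallest adjusted p and those against the majority are described. The single-gene values of 1 flippase gene, which is counted in its class, are not reported here. Other members with values per library were chosen after their values were seen. The members and lists were chosen with earlier results of these data known.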

Additional observations from a re-analysis of the deposited data

How the results depend on the processing

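Of the 30 called pump genes, 21 kept call and direction in all 12 alternatives that gave them a value, and 9 lost the call in at least 1, 3 of which changed sign there. In the edgeR fits with 1 library left out, atp1b2a (without post-MBT A) and atp1b3a (without MBT B) fell under the filter. With library totals 3 pump genes rose, as did 0 calcium pump genes and 0 V-type genes, 7 partner genes and 2173 of all genes, and 5 calcium pump genes and 47 partner genes fell. Among pump and partner genes called on either scale, those whose log2 fold change had the other sign with library totals were atp1a1a.1 (-0.086), atp2b1a (-0.34), atp2b4 (-0.072), atp6v0ca (-0.035), calm1a (-0.39), ctsd (-0.0075), plscr3b (-0.037) and slc31a1 (-0.13). Rises among calcium pump genes numbered 1 without filter, where 3937 of all genes rose. They numbered 1 with DESeq2's Wald test, which called 3001 of all genes higher and 2539 lower. In both, atp2b4 was the rise that lost its call (adjusted p = 0.0652 by edgeR without filter and 0.164 by DESeq2's Wald test), and atp2a2b kept it. Why the call was lost was not tested.

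With each library left out in turn, the rises numbered 5 to 8 for all pump genes, 3 to 4 for sodium-potassium, 1 to 2 for calcium and 1 to 2 for V-type genes. The falls numbered 20 to 23 in all, 1 for sodium-potassium, 2 to 4 for calcium, 10 for V-type and 5 to 6 for flippase genes, with 0 rises there. Partner genes had 8 to 10 rises and 21 to 27 falls, and all genes 3165 to 3647 rises and 3039 to 3743 falls. With 1 post-MBT library, that library is assumed to vary like the MBT libraries. The lowest rise count, 5, was without post-MBT A, where atp6v0ca and atp2b4 lost the call and atp1b2a was not tested. No paired analysis was possible because the count columns carry no replicate numbers that match the labels. Genes under about 50 counts, such as atp1b2a and atp1b3a, are limited by depth.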
